A study of Mus musculus with 6 samples.

Results

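The C-type lectin domain genes described here are all 32 genes of an amplicon panel whose symbol starts with Clec and a digit, out of 23930 genes measured. Transcripts were measured in CD31-positive cells that were sorted from Lewis lung carcinoma (LLC) tumours, grown under the skin of C57/Bl6 mice from a mouse lung cancer line. Tumours were taken 2 weeks after the tumour cells were injected. The 3 BMP9 overexpression libraries (replicates 4, 5 and 6) came from tumours of LLC cells that overexpressed BMP9, a ligand of the bone morphogenetic protein family. The 3 control libraries (replicates 1, 2 and 3) came from tumours of control LLC cells, and host strain, tumour line and sort marker were the same in both groups. Nothing in the labels tells if each library is a mouse of its own or if the BMP9 cells were 1 clone. A p-value here therefore speaks of the variation among the libraries alone, some or all of which could be technical.

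C-type lectin receptors are membrane proteins that bind sugars, lipids or protein ligands through a shared extracellular fold. On macrophages, neutrophils and dendritic cells they sense microbes and dying cells, and they signal either through activating ITAM motifs and the kinase Syk or through inhibitory ITIM motifs and phosphatases. Other members mark endothelial cells, serve as ligands of natural killer (NK) cell receptors, or are secreted.

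Levels are reads per 1000000 reads of the library (RPM), and each gene is read through 1 short amplicon. Amplicons differ in yield, so one gene's level can be set against another's only in rough terms. The BMP9 libraries held 1974510, 4409655 and 28380957 reads and the control libraries 4583428, 1321762 and 1999786 reads, in the order of the replicate numbers. A count of 3 reads, used as the limit of what a count of 0 allows, equalled at most 2.27 RPM in any library. Of the 32 genes, 29 had a read in at least 1 library and 15 passed the filter for testing, which was 5 RPM in at least 3 libraries. Clec4a1 and Clec4b1 passed it in all BMP9 libraries but not in all control libraries.

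The sorted cells carried the transcripts of white blood cells, which bears on every receptor described below. The 13 macrophage and monocyte markers in the table summed to 18523 to 24562 RPM in BMP9 libraries and 4683 to 7266 RPM in control libraries, led by Lyz2 and Itgam. Among them, Cd163 reached 5 RPM in no control library and so was tested only through the BMP9 libraries where it is high. All 12 that were tested rose, or 9 for BMP9 replicate 4 alone against the controls, which share the earlier run time stamp, when Lyz2, Ccr2 and Adgre1 were no longer called. The 10 neutrophil markers, led by Mmp8 and S100a9, summed to 217 to 333 RPM in BMP9 libraries and 25.3 to 45 RPM in control libraries, and Ly6g was at 0.506 RPM or less in every library. The 5 neutrophil markers tested rose, but 4 of them reached 5 RPM in all BMP9 libraries and not in all controls, so the filter favoured that direction. S100a8 among these 4 reached 5 RPM in no control library and so was tested only through the BMP9 libraries where it is high. The 12 T and NK cell markers, led by Gzmb and Cd3g, summed to 606 to 996 RPM in BMP9 libraries and 4722 to 5071 RPM in control libraries, and all 12 fell, 11 of them also with the earlier stamp alone. The 10 dendritic cell markers, led by Ccr7 and Itgae, summed to 261 to 330.0 RPM in BMP9 and 285 to 327 RPM in control libraries. Of the 10 tested 2 fell, Siglech and Xcr1, a share near the 22.5% of all genes tested that fell. The 11 endothelial markers, led by Flt1 and Cdh5, summed to only 28.9 to 41.5 RPM in BMP9 libraries and 21.2 to 53.0 RPM in control libraries, against 247 to 353 and 363 to 532 RPM of Pecam1, the gene of CD31. Of the 3 tested, Flt1 rose and Kdr fell. Flt1 reached 5 RPM in all BMP9 libraries and not in all controls, so the filter favoured its rise. Kdr reached 5 RPM in no BMP9 library and so was tested only through the control libraries where it is high. None of Flt1, Kdr and Siglech was called with the earlier stamp alone. Each count of markers that rose or fell stands beside the shares over all genes tested, of which 12.7% rose and 22.5% fell. A change in the number of cells of a type and a change in the RNA per cell cannot be told apart in these bulk samples.

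The Clec genes as a group were more abundant with BMP9. Their summed level was 3889.6, 4258 and 5469.6 RPM in BMP9 replicates 4, 5 and 6, against 1397, 1758 and 2057 RPM in control replicates 1, 2 and 3. All 3 BMP9 libraries lay above all 3 controls. Of the 15 tested genes, 8 rose and 1 fell in a limma-trend fit over 9460 genes with Benjamini-Hochberg adjustment at 0.05. Over all genes tested, 12.7% rose and 22.5% fell, or 35.2% in either direction. The groups did not overlap for 10 of the 15 genes, against 48.1% of all genes tested. The median log2 fold change of the 15 genes was 0.89, against -0.24 over all genes tested, and 1.14 against 0.005 with TMM scaling, and each change stands against that shift of all genes. Of all calls 36% were higher as deposited and 54.1% with TMM.

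**Figure D1:**
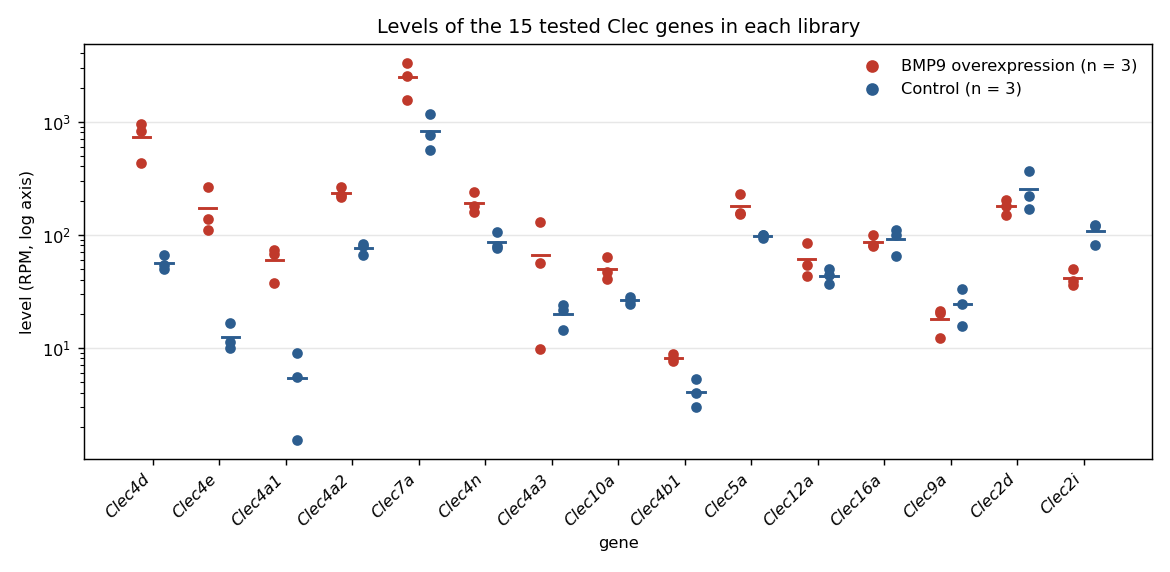
Level of each of the 15 tested Clec genes in RPM (log axis) in the 3 BMP9 overexpression libraries (red, left of each pair) and the 3 control libraries (blue), with points for libraries and lines for group means. Clec7a is the highest in both groups, and the points of Clec4d, Clec4e and Clec4a1 are the farthest apart between groups.

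The largest increases were in the Dectin-2 cluster, a run of 9 receptor genes on chromosome 6, of which 7 were tested, 5 rose and none fell. Clec4d encodes MCL, a receptor of macrophages and neutrophils for mycobacterial glycolipid that pairs with the activating Fc receptor gamma chain (chr6:123262111-123275265, mm10). Clec4d was at 957, 430.2 and 819 RPM in BMP9 replicates 4, 5 and 6 and at 66.3, 53.7 and 49.5 RPM in control replicates 1, 2 and 3. The lowest BMP9 library was several times above the highest control. The means were 735 ± 273 and 56.5 ± 8.75 RPM (SD, n = 3 each), and the log2 fold change was 3.61 (SE 0.31, limma adjusted p = 3.1e-06).

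Clec4e encodes Mincle, which shares its ligand class and signalling chain with MCL and also binds the nuclear protein Sap130 of dying cells (chr6:123281789-123289870). Clec4e was at 264, 110.4 and 138 RPM in BMP9 replicates 4, 5 and 6 and at 11.1, 9.84 and 16.5 RPM in control replicates 1, 2 and 3. The groups were again fully apart, and BMP9 replicate 4 was the highest library for both genes. The means of Clec4e were 171 ± 82.2 and 12.5 ± 3.54 RPM (SD, n = 3 each), and the log2 fold change was 3.60 (SE 0.35, limma adjusted p = 6.1e-06). The ratio of Clec4d to Clec4e was 3.62, 3.90 and 5.95 in BMP9 replicates 4, 5 and 6 and 5.96, 5.46 and 3.0 in control replicates 1, 2 and 3, so that these neighbours kept overlapping proportions.

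Clec4n encodes Dectin-2 itself, a mannan receptor that uses the same gamma chain (chr6:123229843-123247021). Clec4n was at 236, 157 and 181 RPM in BMP9 replicates 4, 5 and 6 and at 76.4, 78.7 and 105 RPM in control replicates 1, 2 and 3. It rose by 1.13 on the log2 scale (SE 0.27, limma adjusted p = 0.005), with no overlap between groups. Relative to Clec4n, both neighbours were higher in all BMP9 libraries than in any control. There were 4.06, 2.73 and 4.53 Clec4d reads per Clec4n read in BMP9 replicates 4, 5 and 6, against 0.869, 0.683 and 0.471 in control replicates 1, 2 and 3, and 0.702 to 1.12 against 0.125 to 0.157 Clec4e reads.

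The same cluster holds the Clec4a genes of the DCIR type. Clec4a2 encodes DCIR1, an inhibitory receptor of dendritic cells, macrophages and neutrophils that carries an ITIM (chr6:123106428-123143999). Clec4a2 was at 222, 214 and 264 RPM in BMP9 replicates 4, 5 and 6 and at 65.5, 79.4 and 82.5 RPM in control replicates 1, 2 and 3. Both groups were tight, and it rose by 1.61 on the log2 scale (SE 0.26, limma adjusted p = 0.00025). Clec4a1, which encodes DCIR4 (chr6:122921848-122934619), was at 37.0, 73.7 and 66.9 RPM in BMP9 replicates 4, 5 and 6 and at 5.45, 1.51 and 9.00 RPM in control replicates 1, 2 and 3, a log2 fold change of 3.40 (SE 0.46, limma adjusted p = 6e-05). Its control levels rest on 45 reads in all.

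Clec4a3, which encodes DCIR3 (chr6:122952515-122969875), did not move as 1 group. It was at 9.62, 130.4 and 55.8 RPM in BMP9 replicates 4, 5 and 6 and at 21.4, 14.4 and 24 RPM in control replicates 1, 2 and 3. BMP9 replicate 4 lay below all controls and the other BMP9 libraries above them. The log2 fold change was 1.07 (SE 0.63, 95% interval -0.27 to 2.40, limma adjusted p = 0.20), or 2.08 without BMP9 replicate 4 and -0.95 for that library alone against the controls. BMP9 replicate 4 carries the earlier run time stamp in its label, as the 3 controls do, and BMP9 replicates 5 and 6 the later one.

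Clec4b1, a further member of the cluster, was at 7.60, 8.84 and 8.03 RPM in BMP9 replicates 4, 5 and 6 and at 3.93, 5.30 and 3.0 RPM in control replicates 1, 2 and 3. The groups did not overlap, but the log2 fold change of 0.87 (SE 0.37) missed the threshold (limma adjusted p = 0.076) and passed it with TMM scaling (1.09, adjusted p = 0.033), edgeR (1.31) and DESeq2 (1.30). Clec4a4, the DCIR2 gene, with 188 and 17 reads in BMP9 and control libraries, and Clec4b2, with 8 and 2 reads, were below the filter. Genes of the Clec4a and Clec4b type are close copies of each other, so which of them gave a read is uncertain.

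The bases upstream of 5 genes are shown: 4 of the 8 that rose, among them those with the largest changes and the most abundant one, and Clec2i, which fell. Each run is the 250 bases before the annotated start in RefSeq (GRCm38.p6, the mm10 assembly), 5′ to 3′ on the strand of the gene. Capitals mark every match on either strand to the 6 motifs searched, and runs in capitals can hold overlapping matches.
Clec4d, chr6:123261857-123262106 (+): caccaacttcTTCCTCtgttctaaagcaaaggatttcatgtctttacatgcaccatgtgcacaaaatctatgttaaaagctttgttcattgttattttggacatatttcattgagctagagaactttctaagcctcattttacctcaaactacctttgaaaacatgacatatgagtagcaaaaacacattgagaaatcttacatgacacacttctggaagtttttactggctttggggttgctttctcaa
Clec4e, chr6:123289872-123290121 (-): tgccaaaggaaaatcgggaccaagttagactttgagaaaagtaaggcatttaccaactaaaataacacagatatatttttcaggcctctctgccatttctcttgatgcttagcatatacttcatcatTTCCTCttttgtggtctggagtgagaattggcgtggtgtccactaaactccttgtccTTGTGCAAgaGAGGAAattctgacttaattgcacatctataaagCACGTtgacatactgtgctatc
Clec4a1, chr6:122921598-122921847 (+): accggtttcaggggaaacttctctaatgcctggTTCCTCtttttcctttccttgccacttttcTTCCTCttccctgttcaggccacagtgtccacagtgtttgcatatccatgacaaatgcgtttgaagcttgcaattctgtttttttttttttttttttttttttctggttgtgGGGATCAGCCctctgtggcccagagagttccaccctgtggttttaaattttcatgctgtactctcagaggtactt
Clec7a, chr6:129472780-129473029 (-): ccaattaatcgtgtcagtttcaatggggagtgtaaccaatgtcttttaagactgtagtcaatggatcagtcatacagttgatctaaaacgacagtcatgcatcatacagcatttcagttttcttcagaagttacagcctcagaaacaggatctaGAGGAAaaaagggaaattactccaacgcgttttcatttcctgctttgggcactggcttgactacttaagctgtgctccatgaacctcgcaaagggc
Clec2i, chr6:128887337-128887586 (+): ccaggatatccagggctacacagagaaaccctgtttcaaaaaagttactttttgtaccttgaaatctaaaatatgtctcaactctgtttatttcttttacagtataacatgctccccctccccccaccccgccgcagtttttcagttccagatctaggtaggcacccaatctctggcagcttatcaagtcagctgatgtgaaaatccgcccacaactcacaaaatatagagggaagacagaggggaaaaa

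The motifs were GAGGAA (PU.1, a regulator of myeloid genes), TTGCNNAA (C/EBP), TGANTCA (AP-1), GGGA and CC with 4 free bases between (NF-kappaB), ACGTG (hypoxia response) and GGCGCC (SMAD proteins of BMP signalling). Clec4d held 1 PU.1 match. Clec4e held 2 PU.1 matches, 1 C/EBP match 66 bases before the start and 1 hypoxia response match. Clec4a1 held 2 PU.1 matches and 1 NF-kappaB match, Clec7a 1 PU.1 match, and none of the letters searched occurred in the Clec2i window. The letters followed the calls only in part. Clec5a, which rose, also held 2 PU.1 matches, and no window was at hand for Clec4n and Clec10a, which rose too. Clec4a2, which rose, held none of the letters searched. PU.1 letters also stood upstream of Clec12a, Clec16a, Clec4b1 and 1 of the annotated starts of Clec4a3, none of which was called. The table held 28 promoters of 25 of the 32 Clec genes, some genes having several starts close together. The PU.1 letters stood in 53.6% of these and in 23.3% of all 32851 promoters. Shares were 14.3% and 9.56% for C/EBP, 17.9% and 6.75% for AP-1, 10.7% and 17.6% for NF-kappaB, 10.7% and 16.6% for hypoxia response and 3.57% and 9.59% for SMAD. A match is a description of letters and was not tested as a binding site.

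The Dectin-1 cluster, also on chromosome 6, held the most abundant Clec transcript. Clec7a encodes Dectin-1, the beta-glucan receptor of macrophages, monocytes and neutrophils, which signals through Syk and Card9 (chr6:129461591-129472779). Clec7a was at 1535, 2519.7 and 3306 RPM in BMP9 replicates 4, 5 and 6 and at 556, 766 and 1169 RPM in control replicates 1, 2 and 3. The groups did not overlap, though BMP9 replicate 4 was nearer to the highest control than to BMP9 replicate 6. The log2 fold change was 1.56 (SE 0.35, limma adjusted p = 0.0029). It was 0.95 for BMP9 replicate 4 alone against the controls of the same run time stamp, and the call was then lost (limma adjusted p = 0.11). The share of Clec7a in the summed level of all 32 genes was 39.5% to 60.4% in BMP9 libraries and 39.8% to 56.8% in control libraries, which overlap.

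Other genes of the Dectin-1 cluster were not called or were near the limit of detection. Clec12a, which encodes the inhibitory receptor MICL of myeloid cells, was at 54.2, 83.5 and 42.8 RPM in BMP9 replicates 4, 5 and 6 and at 50.0, 36.3 and 43.5 RPM in control replicates 1, 2 and 3. The groups overlapped, with a log2 fold change of 0.42 (SE 0.31, 95% interval -0.24 to 1.08, limma adjusted p = 0.31). Clec9a encodes DNGR-1, a receptor by which cross-presenting dendritic cells sense the actin of dead cells. Clec9a was at 12.2, 20.9 and 20.4 RPM in BMP9 replicates 4, 5 and 6 and at 24.4, 33.3 and 15.5 RPM in control replicates 1, 2 and 3. The groups overlapped here too (log2 fold change -0.41, SE 0.36, 95% interval -1.18 to 0.36, limma adjusted p = 0.40). Among other markers of the same dendritic cells, Xcr1 was lower (-1.42, SE 0.37, limma adjusted p = 0.0083). Itgae (-0.69) and Batf3 (0.50, 95% interval -0.32 to 1.33) were not called. Batf3 reached 5 RPM in all BMP9 libraries and not in all controls.

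Clec1b encodes CLEC-2, the platelet receptor of podoplanin, and was below the filter with 0, 11 and 26 reads in BMP9 replicates 4, 5 and 6 and 1 read in control libraries. The groups overlapped, since BMP9 replicate 4, the library with the highest Pdpn, had none. The ratio of pooled levels was 8.41, with an exact 95% counting interval of 1.42 to 341 that leaves out the spread between libraries. Its ligand gene Pdpn was at 459, 97.3 and 170.5 RPM in BMP9 replicates 4, 5 and 6 and at 13.3, 10.6 and 12.5 RPM in control replicates 1, 2 and 3. Pdpn thus lay far above the controls in every BMP9 library, a log2 fold change of 3.92 (SE 0.43, limma adjusted p = 1.4e-05). Of the 8 platelet and megakaryocyte markers, the 3 tested rose, against 12.7% of all genes tested. Ppbp among them reached 5 RPM in no control library and so was tested only through the BMP9 libraries where it is high. Itga2b reached 5 RPM in all BMP9 but not all control libraries, so the filter favoured that direction. The 8 markers summed to 586 to 811 RPM in BMP9 libraries and 37.1 to 72.7 RPM in control libraries. The sum came mostly from Pf4, while Gp6 had no read. Clec1a (26 reads in BMP9 and 7 in control libraries) and Clec12b (7 and 2 reads) were also below the filter.

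Outside these clusters, myeloid receptors rose by smaller amounts. Clec5a encodes MDL-1, an activating receptor of monocytes, macrophages and neutrophils that signals through the adaptor Tyrobp (chr6:40574894-40585821). Clec5a was at 152, 154 and 228 RPM in BMP9 replicates 4, 5 and 6 and at 99.7, 99.9 and 93.5 RPM in control replicates 1, 2 and 3. Every BMP9 library was above the narrow range of the controls, a log2 fold change of 0.83 (SE 0.27, limma adjusted p = 0.024). The call was lost without control replicate 1 (0.85, adjusted p = 0.074) or 3 (0.80, 0.078), without BMP9 replicate 6 (0.64, 0.13) and for BMP9 replicate 4 alone against the controls (0.64, 0.16).

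Clec10a encodes MGL1, a galactose-type lectin of macrophages and dendritic cells (chr11:70156197-70170834). Clec10a was at 63.3, 46.3 and 40.4 RPM in BMP9 replicates 4, 5 and 6 and at 26.2, 24.2 and 28.0 RPM in control replicates 1, 2 and 3. The groups did not overlap, a log2 fold change of 0.89 (SE 0.30, limma adjusted p = 0.03). The call was lost without control replicate 1 (0.89, adjusted p = 0.09), 2 (0.84, 0.07) or 3 (0.94, 0.065) and without BMP9 replicate 4 (0.71, 0.07). Its close relative Mgl2 was at 5.57, 40.4 and 25.4 RPM in BMP9 replicates 4, 5 and 6 and at 6.76, 4.54 and 15.5 RPM in control replicates 1, 2 and 3. As with Clec4a3, BMP9 replicate 4 stood apart from the other BMP9 libraries, and the log2 fold change of 1.11 (SE 0.57) was not called (limma adjusted p = 0.14; 1.89 and called without BMP9 replicate 4, 1.72 and called with edgeR, and -0.44 for BMP9 replicate 4 alone against the controls).

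**Figure D2:**
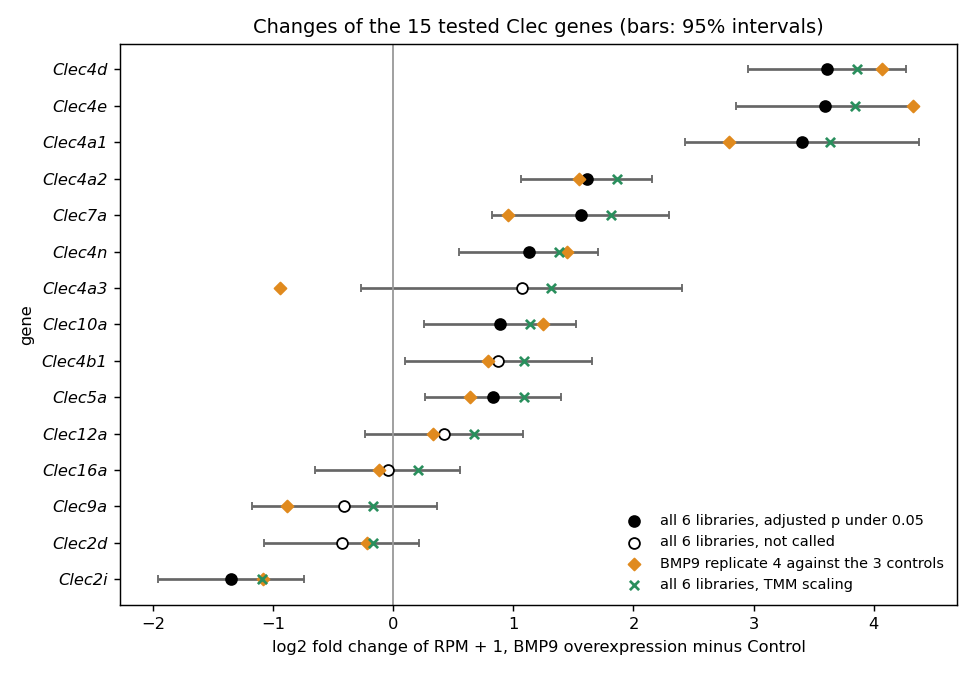
Log2 fold change of RPM + 1, BMP9 overexpression minus control, for the 15 tested Clec genes, with 95% intervals (bars) from all 6 libraries, filled circles for called genes, diamonds for BMP9 replicate 4 alone against the 3 controls and crosses for TMM scaling. Clec4d, Clec4e and Clec4a1 lie above 2 under each of these, and the diamond of Clec4a3 lies at -0.95.

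The Clec2 genes, whose proteins are ligands of the NKR-P1 receptors of NK cells, were the only group with a decrease. Clec2i encodes Clr-g, a ligand of the receptor gene Klrb1f (chr6:128887588-128898167). Clec2i was at 49.1, 35.8 and 38.6 RPM in BMP9 replicates 4, 5 and 6 and at 118, 123 and 81.0 RPM in control replicates 1, 2 and 3. It fell by 1.35 on the log2 scale (SE 0.29, limma adjusted p = 0.0021), with no overlap between groups. Clec2d encodes Clr-b, a widely expressed ligand of inhibitory NK receptors (chr6:129180615-129186534). Clec2d was at 204, 179 and 149.6 RPM in BMP9 replicates 4, 5 and 6 and at 167, 365 and 219 RPM in control replicates 1, 2 and 3, an overlap carried by control replicate 1 (log2 fold change -0.43, SE 0.30, 95% interval -1.07 to 0.22, limma adjusted p = 0.29). There were 3.88 to 5.0 Clec2d reads per Clec2i read in BMP9 libraries and 1.41 to 2.98 in control libraries.

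Clec2g, another gene of this group, was read only in BMP9 libraries, with 3, 5 and 116 reads in replicates 4, 5 and 6. The control libraries held 0 reads of 7904976, which allows up to 0.38 RPM over the group. The pooled BMP9 level of 3.57 RPM was 9.40 times that limit, with the counting error of the BMP9 reads left out. Without BMP9 replicate 6 the pooled level was 1.25 RPM, from 8 reads, or 3.30 times the limit. That deepest library gave most of the reads, at 4.09 RPM there, 1.13 RPM in replicate 5 and 1.52 RPM in replicate 4. Clec2f, annotated as a transcribed unprocessed pseudogene, had 59 reads in BMP9 libraries and 9 in control libraries. Clec2e, Clec2h and Clec2l had at most 3 reads in either group.

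The Dectin-1 genes and the Clec2 genes except Clec2l lie together in 1 run of 12 Clec genes on chromosome 6. This run spans 128662385 to 129472779, and 10 other genes of the table also lie in it. Of the 6 other genes tested there, 4 fell (BC035044, Cd69, Klrb1c and Klrb1f) and none rose, whereas Clec7a at the far end rose. Over all genes tested, 22.5% fell and 12.7% rose. All 12 T and NK cell markers, Klrb1c among them, also fell, and their part in the values of this run was not tested. The 9 genes of the Dectin-2 cluster lie in a run of 368 kb, from 122921848 to 123289870, with no other gene of the table inside it. In all, 24 of the 32 Clec genes and 13 of the 15 tested lie on chromosome 6.

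Clec16a (chr16:10545339-10744878) carries the family name but acts in autophagy, with no known lectin receptor role. Clec16a was at 81.5, 78.9 and 98.4 RPM in BMP9 replicates 4, 5 and 6 and at 99.5, 64.3 and 109.5 RPM in control replicates 1, 2 and 3. The groups overlapped, and the log2 fold change of -0.05 (SE 0.28, 95% interval -0.65 to 0.56, limma adjusted p = 0.91) was 0.21 with TMM scaling.

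Members known from vessels, liver and secretions were close to absent in the reads. Clec14a, a transmembrane lectin of endothelial cells that binds the matrix protein Mmrn2, had 1 read in BMP9 libraries and 1 read in control libraries. Mmrn2 itself was at 2.0 RPM or less in every library. Clec4g, known from liver sinusoidal endothelium, had 31 and 3 reads in BMP9 and control libraries, and Clec4f, known from Kupffer cells of the liver, had none. Of the secreted members, Clec3b (tetranectin) had 7 and 3 reads, Clec11a, a growth factor of bone and blood progenitors, had 2 and 0, and Clec3a and Clec18a had none. A gene listed at 0 may also have an amplicon that failed, as C1qa was at 0.68 RPM or less in every library where its partner C1qb was at 232 RPM or more.

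**Figure D3:**
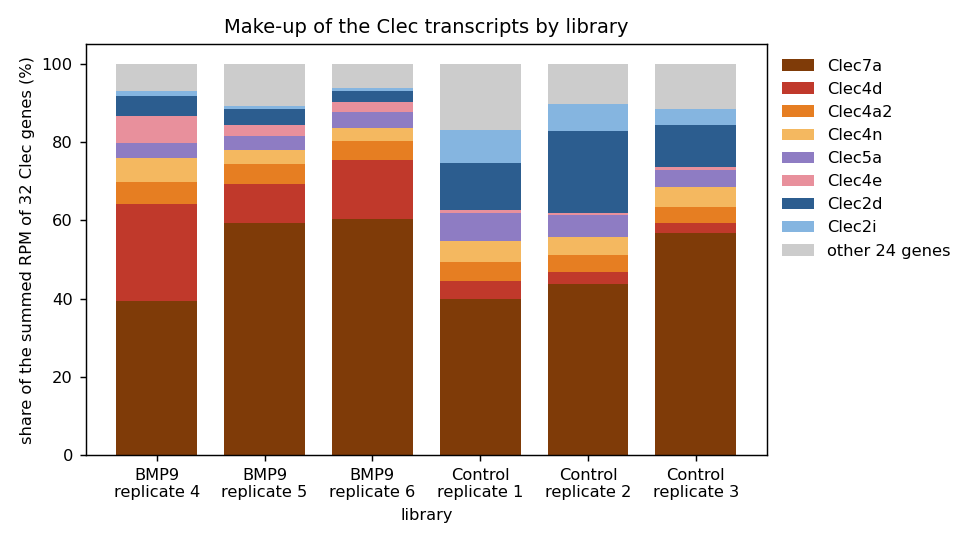
Share of each named gene in the summed RPM of the 32 Clec genes (percent, stacked to 100) in BMP9 replicates 4, 5 and 6 and control replicates 1, 2 and 3. Clec4d takes 10.1% to 24.6% in BMP9 libraries and 2.41% to 4.75% in control libraries, and Clec2d and Clec2i take smaller shares in BMP9 libraries. The sum is higher in all BMP9 libraries, and the RPM of Clec2d overlaps between groups.

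The make-up of the Clec transcripts differed between groups as well as their total. Clec4d made up 10.1% to 24.6% of the summed level in BMP9 libraries and 2.41% to 4.75% in control libraries. Clec4e made up 2.51% to 6.80% and 0.56% to 0.80%. Clec2d made up 2.73% to 5.23% in BMP9 libraries and 10.6% to 20.8% in control libraries, and Clec2i 0.705% to 1.26% and 3.94% to 8.48%. The summed level was higher in all BMP9 libraries, which lowers the share of a gene that does not change. The RPM of Clec2d overlapped between groups and was not called, so its smaller share does not show a lower level. The share of Clec4a2 was 4.83% to 5.72% in BMP9 libraries and 4.01% to 4.68% in control libraries, a small gap without overlap, while that of Clec4n (3.30% to 6.05% and 4.48% to 5.46%) overlapped.

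Since macrophage and monocyte markers were 3.36-fold higher in BMP9 libraries by their summed means, each Clec gene was also set against that sum within its library, as a description. Clec4d stood at 48.8, 23.2 and 33.3 RPM per 1000 RPM of the markers in BMP9 replicates 4, 5 and 6 and at 9.86, 11.5 and 6.81 in control replicates 1, 2 and 3. Clec4e stood at 13.5, 5.96 and 5.60 and at 1.65, 2.10 and 2.27, and Clec4a1 at 1.89, 3.98 and 2.73 and at 0.811, 0.323 and 1.24. These 3 genes were higher on this scale in all BMP9 libraries than in any control, as were 1.35% of all genes tested. Clec7a stood at 78.3, 136 and 135 in BMP9 replicates 4, 5 and 6 and at 82.7, 164 and 161 in control replicates 1, 2 and 3, and Clec4a2 at 10.8 to 11.5 and at 9.73 to 16.96, so that the groups overlapped on this scale.

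The scale leans on Lyz2, which made up 45.8% to 57.1% of the marker sum in BMP9 libraries and 69.9% to 75.7% in control libraries. Without Lyz2, an alternative chosen after seeing the data, Clec4d (43.4 to 90.1 in BMP9 and 24.2 to 40.5 in control libraries) and Clec4e (11.1 to 24.9 and 6.80 to 8.07) were still higher without overlap, as were 0.402% of all genes tested. Clec4a1 then overlapped (3.48 to 7.43 and 1.07 to 4.404). Clec7a (145 to 314 and 339.9 to 572) and Clec4a2 (20.9 to 25.1 and 40.0 to 56.4) were then lower in all BMP9 libraries. With the 13 markers 7 of the 15 Clec genes were lower without overlap, and 11 without Lyz2, against 85.5% and 94.5% of all genes tested, so lower values on this scale say nothing particular about these genes. Neutrophil markers were 7.998-fold higher by their summed means, T and NK cell markers 0.174-fold, and the part of either in these values was not tested.

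**Figure D4:**
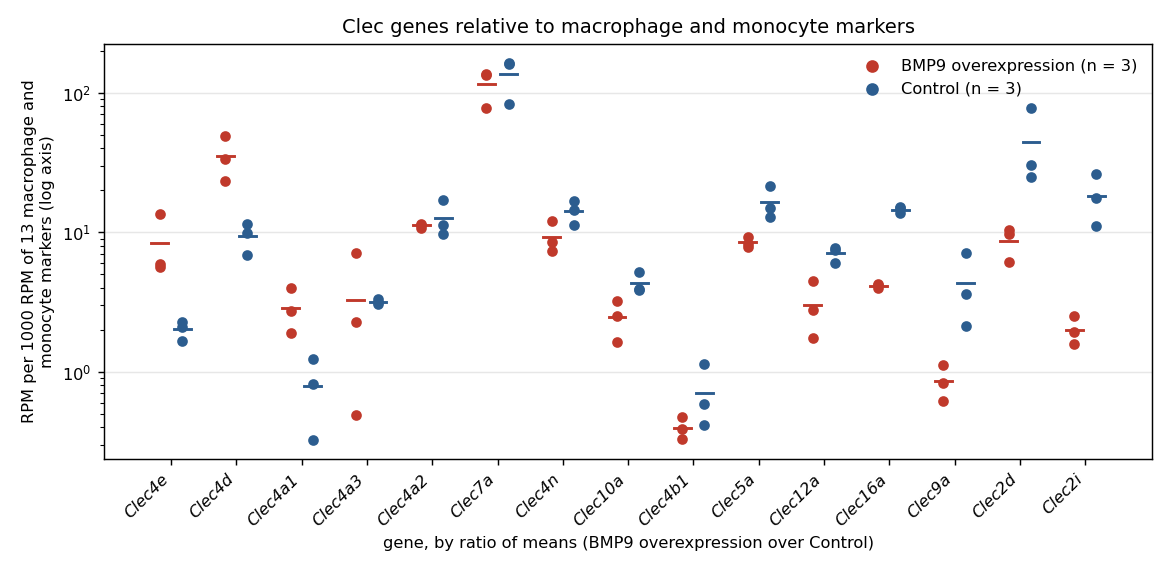
RPM of each tested Clec gene per 1000 RPM of the summed 13 macrophage and monocyte markers of the same library (log axis), in the 3 BMP9 overexpression libraries (red, left) and the 3 control libraries (blue), with lines for group means. Clec4e, Clec4d and Clec4a1 are higher in all BMP9 libraries, and Clec7a and Clec4a2 overlap; without Lyz2 in the sum, Clec4a1 overlaps and Clec7a and Clec4a2 are lower.

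Other genes with C-type lectin domains gave a mixed picture. Of 32 measured, 14 were tested, 4 rose and 2 fell, against 12.7% and 22.5% of all genes tested. The median log2 fold change of the 14 was 0.10 (0.34 with TMM). Mrc1, the mannose receptor of macrophages, was at 1867, 1648 and 2770.3 RPM in BMP9 replicates 4, 5 and 6 and at 279.9, 218 and 378 RPM in control replicates 1, 2 and 3 (log2 fold change 2.84, SE 0.30, limma adjusted p = 1.1e-05). Mrc1 is also 1 of the 13 macrophage and monocyte markers summed above. Cd93, a group XIV lectin like Clec14a that monocytes also carry, rose by 2.76 (SE 0.32), and Thbd, the thrombomodulin gene of the same group, by 2.51 (SE 0.38). Cd302 rose by 0.89 (SE 0.30, limma adjusted p = 0.03), a call lost without any 1 library except BMP9 replicate 4 (0.65 to 1.0, adjusted p 0.053 to 0.16), and lost for BMP9 replicate 4 alone against the controls (0.44, adjusted p = 0.38). Cd69, an early activation receptor of lymphocytes that lies among the Clec2 genes, fell by 1.33 (SE 0.30, limma adjusted p = 0.003).

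Among partner receptors and ligands, Pdpn and the Klrb1 genes went in opposite directions. Of 7 measured and 6 tested, Pdpn rose and Klrb1a, Klrb1c and Klrb1f fell, with a median of -0.99 (-0.74 with TMM). Over all genes tested, 12.7% rose and 22.5% fell. Klrb1f, the receptor gene paired with Clec2i, was at 24.3, 14.97 and 8.70 RPM in BMP9 replicates 4, 5 and 6 and at 89.9, 117 and 95.5 RPM in control replicates 1, 2 and 3 (log2 fold change -2.68, SE 0.35, limma adjusted p = 4.6e-05). Klrb1a and Klrb1c, further NKR-P1 receptor genes, fell by 2.99 (SE 0.37) and 1.72 (SE 0.35). Klrb1a reached 5 RPM in no BMP9 library and so was tested only through the control libraries where it is high. Sap130, the Clec4e ligand gene, was at 33.1 to 55.2 RPM in BMP9 libraries and 41.0 to 53.9 RPM in control libraries, and Lgals9 did not pass the test either. T and NK cell markers fell in the same libraries, Klrb1c being itself 1 of those 12 markers. Their part in the Klrb1 values was not tested.

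The signalling chain below the receptors gave a mixed result. Of 13 genes of the ITAM adaptors and the Syk and Card9 route, all tested, 3 rose and 3 fell as deposited, with a median of 0.12. Over all genes tested, 12.7% rose and 22.5% fell, so the share of the list that fell was near that of all genes. The counts of the list were 6 higher and 0 lower with TMM, edgeR or DESeq2. Fcer1g, the gamma chain used by MCL, Mincle and Dectin-2, was at 2384, 2964 and 2773 RPM in BMP9 replicates 4, 5 and 6 and at 847, 2188 and 1259 RPM in control replicates 1, 2 and 3. It rose by 1.02 (SE 0.34, limma adjusted p = 0.029), or 0.70 (adjusted p = 0.18) without control replicate 1, and its call was also lost without control replicate 3 or BMP9 replicate 5 or 6. Syk, the kinase itself, rose by 1.02 (SE 0.30, limma adjusted p = 0.015), or 0.73 (adjusted p = 0.068) without control replicate 2, and Card9, its downstream adaptor, by 1.01 (SE 0.33, limma adjusted p = 0.025), a call lost without any 1 library except BMP9 replicate 4 (0.79 to 1.06, adjusted p 0.052 to 0.12). For BMP9 replicate 4 alone against the controls the 3 values were 0.85, 0.82 and 0.18, none of them called.

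Tyrobp, the adaptor of MDL-1, was at 881, 792 and 939 RPM in BMP9 replicates 4, 5 and 6 and at 839, 1415 and 687 RPM in control replicates 1, 2 and 3, and was not called (log2 fold change -0.10, limma adjusted p = 0.81; 0.15 with TMM). The members called lower were Hcst, an adaptor of NK and T cells, Vav1, an exchange factor, and Cblb, a ubiquitin ligase that restrains Syk, with log2 fold changes of -0.88, -0.73 and -1.05. These calls depended on single libraries and on scaling. All 3 were lost with TMM (-0.62, -0.47 and -0.80) and without control replicate 1 (-0.91, -0.73 and -0.95) or 3 (-0.62, -0.69 and -0.98), and the Cblb value was -0.63 without BMP9 replicate 4, also not called. With quantile scaling Hcst lost its call, while Vav1 and Cblb kept theirs (limma adjusted p = 0.025 and 0.022). For BMP9 replicate 4 alone against the controls the values of Hcst, Vav1 and Cblb were -0.56, -1.01 and -1.90. Of the 3 ITIM phosphatases, Ptpn6, Ptpn11 and Inpp5d, none was called (adjusted p 0.35 to 0.77, DESeq2 and edgeR counts also 0), with log2 fold changes of -0.31, 0.11 and 0.12.

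Most tested genes that Syk and Card9 signalling can induce, as many other stimuli do, rose. Of 10 measured, 7 were tested, 5 rose and none fell, against 12.7% and 22.5% of all genes tested. The median of the 7 was 3.04 (3.26 with TMM). Il6 and Cxcl1 reached 5 RPM in no control library and so were tested only through the BMP9 libraries where they are high, which leaves the count and the median as description. Ptgs2, the prostaglandin-forming enzyme COX-2, was at 317, 185 and 252 RPM in BMP9 replicates 4, 5 and 6 and at 28.1, 28.0 and 21.5 RPM in control replicates 1, 2 and 3 (log2 fold change 3.20, SE 0.29, limma adjusted p = 3.6e-06). Il6 and Il1b, both inflammatory cytokines, rose by 3.04 (SE 0.37) and 2.06 (SE 0.30), and the neutrophil attractants Cxcl1 and Cxcl2 by 3.91 (SE 0.49) and 3.06 (SE 0.55). For Cxcl2, Cxcl1 and Ptgs2 the highest library was BMP9 replicate 4, as it was for Clec4d, Clec4e and Pdpn. Il6 was highest in BMP9 replicate 5 (34.5 RPM, against 27.9 RPM in BMP9 replicate 4). Il1b was highest in BMP9 replicate 6 (2248 RPM) and its lowest BMP9 library was replicate 4 (1737 RPM). The order of the BMP9 libraries thus differed among these genes. Il10 (0.73) and Csf2 (-0.66) did not pass the test, and Tnf, Il12b and Il23a were below the filter.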

How the data were processed

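Each deposited value is an RPM, the reads of 1 amplicon scaled by the authors to 1000000 reads of its library, per the file headers. A mouse AmpliSeq transcriptome panel for Ion Torrent was used, per the labels' protocols. The submitters' processing notes name mm10. The read aligner is not given in the sources used here. Dividing each RPM by the worth of 1 read gave whole reads for 100% of values above 0, within 0.05 reads. On these reads edgeR called 3114 and DESeq2 3317 of 9460 genes, against 3330 by limma on RPM. PCR reads carry no molecular identifiers, so floors and intervals on reads cover counting error only.

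Groups were compared by limma-trend, version 3.58.1 in R 4.3.3, after taking log2(RPM + 1), which understates changes of low genes, with all 6 libraries, 3 per group, and genes of at least 5 RPM in at least 3 libraries. Adjusted p-values are Benjamini-Hochberg over all genes tested, at 0.05. The script was tested on simulated reads. Alternatives were pseudocounts of 0.5 and 5, other filters (none, or a mean of 20 RPM), TMM and quantile scaling, array weights, the run time stamp as a covariate or the earlier stamp alone, each library left out, edgeR 4.0.16 and DESeq2 1.42.0. Marker sums without Lyz2, marker calls with the earlier stamp and Clec2g without BMP9 replicate 6 were added after seeing the data. Where a library left out leaves BMP9 replicate 4 alone, it is assumed to vary like the others.

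The genes described and the 5 lists and 8 marker lists beside them were chosen with earlier results of these data known. By rule, all tested Clec genes were named, with up to 4 members of smallest p of each list, every member that moved against its list, and the leading 2 of each marker list. The B cell markers (led by Cd22 and Cd79b) summed to 66.6 to 112 RPM in BMP9 and 49.2 to 80.0 RPM in control libraries, with Cd22 alone called higher, and the mast cell markers (led by Mcpt4 and Cpa3) to 173 to 204 and 128 to 330 RPM, with 2 of 4 higher. Over all genes tested, 12.7% were called higher. The mast cell marker Fcer1a reached 5 RPM in no control library and was tested only through the BMP9 libraries. Ly6g, S100a8, Ccr2, Adgre1, Cd163, Fcer1a, Itga2b, Batf3, Flt1, Kdr, Siglech, Xcr1, C1qa, C1qb, Mmrn2, Mgl2, Tyrobp, Sap130, Lgals9, Il10, Csf2 and the ITIM phosphatases were named with their values in view. Some members of the lists are not reported here. Gene positions are from GENCODE M21. The transcript of BMP9 itself, Gdf2, was at 0.506 RPM or less in every library, and overexpression was in the tumour cells, not in the sorted fraction.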

Additional observations from a re-analysis of the deposited data

How the results depend on the processing

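No paired analysis was possible because the replicate numbers of the groups are not shared. Over the alternatives, 6 to 10 Clec genes were higher and 1 was lower. Of 254 log2 fold changes of the 15 tested Clec genes under the alternatives, 225 kept their direction and their side of the threshold, 12 lost a call, 8 gained one and 9 changed sign. The calls of Clec4d, Clec4e, Clec4a1, Clec4a2, Clec4n and Clec2i held under all 17. Clec7a was not called without the filter on low values (1.56, adjusted p = 0.066) or when the run time stamp entered as a term (0.95, adjusted p = 0.087). Clec4a3 was at -0.95 with the stamp as a term and with the earlier stamp alone. It was called at 1.35 with array weights and at 1.99 with edgeR. Clec16a, not called in any setting, was at 0.21 with TMM, 0.072 with quantile normalization, 0.18 with edgeR, 0.17 with DESeq2 and -0.28 to 0.10 when single libraries were left out. The number of all genes called lower was 2130, against 1382 with TMM, 3351 with array weights and 1367 to 2312 when single libraries were left out, the lowest without control replicate 1. The cause of these shifts was not tested. Of the signalling list, 3 genes were higher and 3 lower, against 5 higher with array weights, 0 and 0 without the filter on low values, 1 higher with the stamp as a term or when control 1, control 3, BMP9 5 or BMP9 6 was left out, and 0 higher with the earlier stamp alone. Of the genes induced by Syk and Card9, 5 were higher, against 3 with a mean filter of 20 RPM, which tests fewer genes, and 1 was lower with array weights. Mgl2 was at -0.44 with the stamp as a term. Depth limits the 17 genes below the filter, of which 3 had no read.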
